A study of Mus musculus with 6 samples.

Results

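A set of 10 transcription factor genes of mesenchymal and tendon cells were followed through RNA-seq of cardiac fibroblasts, the collagen-producing cells of the heart interstitium: *Snai1*, *Snai2*, *Twist1*, *Twist2*, *Zeb1*, *Zeb2*, *Prrx1*, *Sox9*, *Scx* and *Mkx*. They were taken by gene symbol from the deposited expression table, and 10 of its 34745 genes are these factors. The cells came from the left ventricle of male C57BL/6 mice aged 8 to 10 weeks, 7 days after myocardial infarction (MI) from a permanent tie around the left anterior descending artery. The KO group holds 3 libraries from mice whose *Kdm5b* gene, which encodes an eraser of H3K4me2 and H3K4me3 (histone marks of active promoters), lost the part encoding the catalytic JmjC domain by CRISPR/Cas9 editing, with a frameshift, and the WT group holds 3 libraries from littermates with an intact gene. All 6 libraries are from infarcted hearts, so no value describes the uninjured heart, and the labels do not say whether each library came from its own animal, so the p-values measure the spread between these libraries.

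All 10 factors bind DNA. *Snai1*, *Snai2*, *Zeb1* and *Zeb2* encode zinc finger repressors that bind E-boxes (CANNTG, where N is any base) and silence epithelial genes such as *Cdh1* when epithelial or endothelial cells turn into mesenchymal cells. *Twist1*, *Twist2* and *Scx* encode basic helix-loop-helix proteins that bind E-boxes as dimers with E proteins. *Prrx1* and *Mkx* encode homeobox proteins of limb, skeletal and connective tissue, and *Sox9* encodes an HMG box activator of cartilage matrix genes. *Scx*, *Mkx* and *Sox9* act in tendon and cartilage formation, and several of the 10 are active in fibroblasts that lay down scar matrix.

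In the KO libraries *Snai1*, *Twist1*, *Twist2* and *Sox9* were lower than in the WT libraries, at 62.8% to 72.3% of the WT level, while *Snai2*, *Zeb1*, *Zeb2*, *Prrx1*, *Scx* and *Mkx* did not pass the test (edgeR's quasi-likelihood test, adjusted p under 0.05 over all 14084 genes tested). Thus 4 of the 10 were called, all 4 lower, where 30.2% of all genes tested were called, 12.5% lower and 17.7% higher. Of the factors 0 were called higher by edgeR, DESeq2 or limma, and 0 were higher at an unadjusted p under 0.05. The median log2 fold change was -0.44 over the 10 factors and -0.02 over all genes tested. These directions are relative to the bulk of genes. With the libraries scaled on fibroblast markers, or on cardiomyocyte and macrophage markers, 0 of the 10 were called lower and *Snai2* and *Zeb1* were called higher.

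The libraries held 12025403 to 15329427 counts, so a factor counted 0 times could still reach 0.249 CPM (counts scaled by library size) in the smallest one, and all 10 were counted in every library and passed the expression filter. *Kdm5b* itself had 98.1, 107 and 105 CPM in KO-1, KO-2 and KO-3 and 108, 129 and 123 CPM in WT-1, WT-2 and WT-3. Its difference missed the threshold (log2 fold change -0.22, SE 0.07, adjusted p = 0.0574 from edgeR). It passed as lower with a replicate block (adjusted p = 0.0271), with upper quartile normalization (0.0324) and without WT-1 (0.0188). Scaled on cardiomyocyte and macrophage markers or on fibroblast markers, it turned to 0.15 and 0.18 without passing (adjusted p = 0.128 and 0.062 from edgeR). Counts cover the whole gene and do not separate the deleted part, so they do not check the deletion, and the groups are named by their labels. Markers of other cells differed between the groups as well. Of 12 endothelial marker genes 11 were called higher, where 17.7% of all genes tested were. Their summed level ran from 233 to 335 FPKM (counts scaled by gene length and library size) in KO against 45.1 to 46.5 FPKM in WT. Of 12 fibroblast marker genes 11 were called lower, where 12.5% of all genes tested were. Their summed levels were 3020 to 3494 FPKM in KO and 4121 to 4406 FPKM in WT, so the labelled cell type was present in all 6 libraries. In such bulk samples fewer cells of a type and less RNA per cell cannot be told apart.

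The promoters of *Snai1*, *Twist1* and *Twist2* are shown because these factors were lower together, and that of *Prrx1*, which did not pass the test, for contrast. *Sox9*, the other factor called lower, had no window. Each run reads 5′ to 3′ on the strand of the gene, from 250 bases before the RefSeq start site to 50 after it (GRCm38.p6, the build family of the deposited coordinates). Capitals mark E-boxes (CANNTG) and GC boxes (GGGCGG, or CCGCCC on the other strand).
*Snai1* (chr2:167537945-167538244, plus strand): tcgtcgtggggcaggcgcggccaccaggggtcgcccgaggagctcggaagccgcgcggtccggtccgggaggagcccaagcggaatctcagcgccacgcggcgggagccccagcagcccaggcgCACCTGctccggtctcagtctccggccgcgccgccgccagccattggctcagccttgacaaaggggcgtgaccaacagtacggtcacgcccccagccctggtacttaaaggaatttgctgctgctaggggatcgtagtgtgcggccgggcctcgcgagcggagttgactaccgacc
*Twist1* (chr12:33957421-33957720, plus strand): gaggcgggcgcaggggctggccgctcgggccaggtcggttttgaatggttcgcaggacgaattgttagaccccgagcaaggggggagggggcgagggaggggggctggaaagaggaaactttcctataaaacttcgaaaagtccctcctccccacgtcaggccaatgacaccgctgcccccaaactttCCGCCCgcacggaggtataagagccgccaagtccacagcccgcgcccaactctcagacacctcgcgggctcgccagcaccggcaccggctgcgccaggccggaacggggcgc
*Twist2* (chr1:91801211-91801510, plus strand): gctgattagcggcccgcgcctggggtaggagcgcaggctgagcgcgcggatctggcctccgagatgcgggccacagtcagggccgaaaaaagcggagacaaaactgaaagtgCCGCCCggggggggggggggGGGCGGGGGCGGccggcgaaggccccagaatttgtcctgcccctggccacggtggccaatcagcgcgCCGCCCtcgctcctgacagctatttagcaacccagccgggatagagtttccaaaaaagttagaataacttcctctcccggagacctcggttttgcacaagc
*Prrx1* (chr1:163313601-163313900, minus strand): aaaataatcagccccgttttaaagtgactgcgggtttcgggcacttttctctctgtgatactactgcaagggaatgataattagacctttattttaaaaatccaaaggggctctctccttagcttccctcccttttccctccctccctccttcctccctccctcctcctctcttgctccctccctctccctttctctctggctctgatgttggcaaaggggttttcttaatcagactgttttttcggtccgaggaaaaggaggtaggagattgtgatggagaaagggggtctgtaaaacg

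The *Snai1* window holds 1 E-box, and it has the letters CACCTG, the form that Snail and ZEB zinc fingers bind. The letters CANNTG were found, on either strand, in 72.3% of all 32851 RefSeq windows of the same length and CACCTG, which is contained in CANNTG, in 20.2%. The windows of *Twist1*, *Twist2*, *Zeb2* and *Prrx1* hold no CANNTG. GC boxes, which 35.7% of all windows hold, occur once in the *Twist1* window and at 4 positions in the *Twist2* window. The letters TGACGTCA, the site of ATF and CREB proteins, occur in none of these 5 windows and in 1.79% of all windows. No window was used for *Sox9*, *Snai2*, *Scx*, *Zeb1* or *Mkx*, so the windows do not compare the lower factors with the others. The windows also differ in base composition. The GC content is 70.0% for *Snai1*, 66.0% for *Twist1* and 64.7% for *Twist2*, but 49.3% for *Zeb2* and 47.7% for *Prrx1*, against a median of 52.7% over all windows. CG dinucleotides number 34 in the window of *Snai1*, 27 in *Twist1*, 25 in *Twist2*, 9 in *Zeb2* and 6 in *Prrx1*, against a median of 7. These letters are a description of the windows and not evidence of binding.

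*Snai1*, the Snail repressor whose induction marks the onset of mesenchymal transition, is a gene of 3 exons (ENSMUSG00000042821, chromosome 2 from 167538195 to 167542814). It had 40.9, 45.6 and 40.5 CPM, after TMM normalization of the library sizes, in KO-1, KO-2 and KO-3 and 57.5, 58.4 and 59.7 CPM in WT-1, WT-2 and WT-3. The WT libraries lay close together and above every KO library. The log2 fold change was -0.47 (SE 0.07, adjusted p = 0.00143 from edgeR), or 72.3% of the WT level. *Snai1* was also the most abundant of the 10 per length, with 26.4 ± 1.64 FPKM (SD, n = 3) in KO and 35.7 ± 0.660 FPKM in WT.

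*Snai2*, which encodes Slug, a close relative with the same kind of zinc fingers, did not follow (ENSMUSG00000022676, chromosome 16 from 14705852 to 14709395). Its levels were 20.7, 15.2 and 14.1 CPM in the KO libraries and 15.8, 15.8 and 16.3 CPM in the WT libraries. KO-1 was high and the other KO libraries were below all WT libraries, so the groups overlapped. The log2 fold change of 0.06 (SE 0.15, adjusted p = 0.796 from edgeR) turned to -0.12 without KO-1.

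*Twist1* and *Twist2* encode bHLH proteins of mesoderm and neural crest mesenchyme that are closely alike in their DNA-binding part. *Twist1* (ENSMUSG00000035799, chromosome 12 from 33957671 to 33959817) had 9.09, 10.8 and 8.25 CPM in KO and 13.9, 13.9 and 16.9 CPM in WT. *Twist2* (ENSMUSG00000007805, chromosome 1 from 91801461 to 91848028) had 5.73, 5.55 and 6.71 CPM in KO and 10.9, 9.96 and 7.89 CPM in WT. In both genes every KO library was below every WT library. The log2 fold changes were -0.67 (SE 0.14, adjusted p = 0.00834 from edgeR) for *Twist1* and -0.67 (SE 0.16, adjusted p = 0.0146) for *Twist2*, or 62.9% and 62.8% of the WT level. Of the 4 calls, only these had a fitted fold change above 1.5. *Twist2* lost its call without WT-1 (adjusted p = 0.0529). On *Twist2*, 46.5% of the exonic bases in the GENCODE M21 annotation are shared with *Gm29100* on the opposite strand, which had 1 to 6 counts per library, while *Twist2* had 70 to 155.

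Neither ZEB repressor passed the test. *Zeb1* (ENSMUSG00000024238, chromosome 18 from 5591860 to 5775467) had 76.4, 62.6 and 69.2 CPM in KO and 72.5, 56.3 and 55.2 CPM in WT. WT-1 lay among the KO libraries, and the log2 fold change of 0.18 (SE 0.12) did not pass (adjusted p = 0.287 from edgeR), although without WT-1 it was 0.31 with an adjusted p of 0.0496. *Zeb2* (ENSMUSG00000026872, chromosome 2 from 44983632 to 45117395), which is also expressed in macrophages, had 185, 161 and 184 CPM in KO and 190, 202 and 209 CPM in WT. The KO libraries were all below the WT libraries, but by a small step. Its log2 fold change was -0.18 (SE 0.07, adjusted p = 0.0748 from edgeR), and with upper quartile normalization it passed the threshold (-0.22, adjusted p = 0.0318). The macrophage marker genes in the same libraries summed to 792 to 823 FPKM in KO and 981 to 1051 FPKM in WT. Of 11 tested, 7 were called lower and 2 higher, where 12.5% and 17.7% of all genes tested were. *Cd163* was at 0 in every library, and the part of macrophages in the *Zeb2* values was not tested. The antisense gene *Zeb2os* shares 3.27% of the *Zeb2* exonic bases and had 39 to 63 counts per library, against 2143 to 2967 for *Zeb2*.

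*Prrx1*, a homeobox gene of limb and connective tissue mesenchyme (ENSMUSG00000026586, chromosome 1 from 163245119 to 163313710), varied more within WT than between the groups. It had 68.3, 76.4 and 81.0 CPM in KO and 73.1, 64.9 and 105 CPM in WT. WT-3 was the highest of the 6 libraries, and without it the log2 fold change of -0.10 (SE 0.16, adjusted p = 0.667 from edgeR) became 0.12.

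*Sox9* (ENSMUSG00000000567, chromosome 11 from 112782224 to 112787760), which drives cartilage matrix genes and is also active in heart valves, had 21.1, 18.2 and 17.6 CPM in KO and 29.5, 27.2 and 22.1 CPM in WT. The groups did not overlap, and WT-3 was the WT library closest to the KO libraries. The log2 fold change was -0.47 (SE 0.13, adjusted p = 0.0235 from edgeR), or 72.1% of the WT level. Of the 4 calls it was the one lost most often when a library was left out. It was lost without KO-2, KO-3, WT-1 or WT-2 (adjusted p = 0.066, 0.0857, 0.0745 and 0.0674), with log2 fold changes from -0.45 to -0.38 in those fits.

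The tendon factors *Scx* and *Mkx* were the lowest of the 10 in mean CPM in each group, though *Twist2* was below *Mkx* in KO-2 and WT-3. *Scx*, or scleraxis, marks tendon progenitors and is induced by TGF-β in fibroblasts (ENSMUSG00000034161, chromosome 15 from 76457438 to 76459468). It had 38, 53 and 40 counts in KO and 62, 59 and 64 counts in WT, which correspond to 3.11, 3.98 and 2.58 CPM and 4.34, 4.03 and 4.55 CPM. The CPM values did not overlap, but KO-2 and WT-2 were close, and in FPKM they crossed (3.52 in KO-2 and 3.49 in WT-2). The log2 fold change was -0.42 (SE 0.20, adjusted p = 0.147 from edgeR). *Scx* lies within the span of *Bop1*, a ribosome biogenesis gene on the opposite strand. In GENCODE M21 the exons of the 2 genes share 0 bases, so *Scx* sits in intronic sequence of *Bop1*. The libraries kept strand, but whether the counting used it is not given in the sources used here, and without it reads of unspliced *Bop1* RNA and of *Scx* cannot be told apart. *Bop1* had more counts than *Scx* and its groups overlapped (91.5, 102 and 93.7 CPM in KO and 93.7, 91.1 and 97.0 CPM in WT, log2 fold change 0.03, adjusted p = 0.757 from edgeR).

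*Mkx*, or Mohawk, sustains tendon collagen genes (ENSMUSG00000061013, chromosome 18 from 6910459 to 7004780). It had 40, 94 and 53 counts in KO and 99, 93 and 121 counts in WT, or 3.28, 7.05 and 3.42 CPM and 6.93, 6.35 and 8.60 CPM. KO-2 lay within the WT range, while the other KO libraries were clearly below it. The log2 fold change of -0.67 (SE 0.29) was as large as that of the Twist genes but did not pass (adjusted p = 0.121 from edgeR). Without KO-2 it was -1.11 with an adjusted p of 0.00606.

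**Figure D1:**
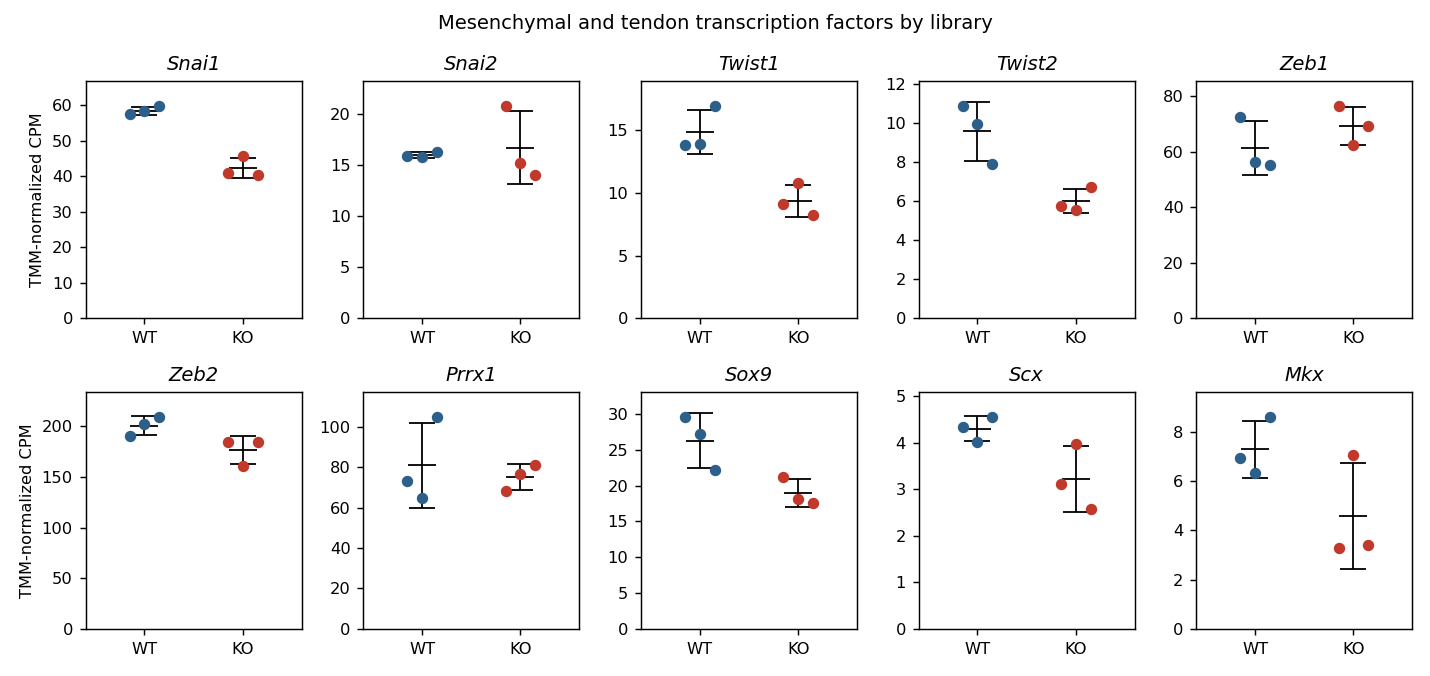
TMM-normalized CPM (vertical axes, from 0) of the 10 transcription factor genes in the 3 WT libraries (blue) and the 3 KO libraries (red), with bars at the mean and SD. The KO libraries lie below all WT libraries for *Snai1*, *Twist1*, *Twist2*, *Zeb2*, *Sox9* and, by a small margin, *Scx* (relative to the bulk of genes, since *Zeb2* turned higher under marker scalings), and single libraries stand apart in *Snai2* (KO-1), *Prrx1* (WT-3) and *Mkx* (KO-2).

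The CPM of the groups did not overlap in 6 of the 10 factors, all 6 lower in KO, where 47.0% of all genes tested did not overlap and 22.4% did so lower in KO. Per gene length, the order of mean WT levels was *Snai1* (35.7 FPKM), *Twist1* (9.10), *Snai2* (7.76), *Sox9* (6.27), *Zeb2* (5.80), *Prrx1* (5.003), *Scx* (3.74), *Zeb1* (3.68), *Twist2* (2.45) and *Mkx* (1.48), with FPKM as the unit of each. The neighbours *Sox9* and *Zeb2*, *Zeb2* and *Prrx1*, and *Scx* and *Zeb1* overlapped between the WT libraries. In KO *Twist1* came after *Snai2* (5.87 ± 0.787 against 8.30 ± 1.80 FPKM, SD, n = 3), and its values no longer stood clear of those of *Zeb2* (5.24 ± 0.434 FPKM). The length behind the deposited FPKM of *Zeb2* is 34118 bases, where GENCODE M21 gives 19942 exonic bases. With M21 lengths, an alternative added after seeing the data, *Zeb2* would come next after *Snai1* with 9.93 FPKM in WT, and *Scx* would fall to 2.12 FPKM, so the order below *Snai1* depends on the gene length used, which cancels within a gene between the groups.

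Ratios of 2 factors within a library do not depend on how libraries are scaled. The log2 ratio of *Snai1* to *Snai2* in FPKM was 1.31, 1.91 and 1.85 in KO-1, KO-2 and KO-3 and 2.19, 2.22 and 2.20 in WT-1, WT-2 and WT-3. Its mean was 1.69 ± 0.331 (SD, n = 3) in KO and 2.20 ± 0.0143 in WT, a difference of -0.51 without overlap of the groups. The exact permutation p was 0.1 (two-sided), the lowest value possible with this number of libraries (0.4 after Benjamini-Hochberg adjustment over the 4 ratios). Without KO-1 the difference was -0.32. The balance of the Twist genes was alike in both groups on average, with log2 ratios of *Twist1* to *Twist2* of 1.90 ± 0.331 in KO and 1.90 ± 0.399 in WT and a difference of 0.00 (exact permutation p = 1), though the libraries spread widely and leaving out single libraries gave -0.16 to 0.22. The log2 ratio of *Zeb1* to *Zeb2* was -0.30 ± 0.0696 in KO and -0.67 ± 0.286 in WT. WT-1 lay within the KO range, and the difference of 0.37 had an exact permutation p of 0.2 (n = 3 per group). The log2 ratio of *Scx* to *Mkx* was 1.67 ± 0.377 in KO and 1.35 ± 0.146 in WT, with overlap (exact permutation p = 0.3). With 1 added to each FPKM the difference of *Scx* to *Mkx* was 0.06 in place of 0.31, and that of *Twist1* to *Twist2* -0.14.

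**Figure D2:**
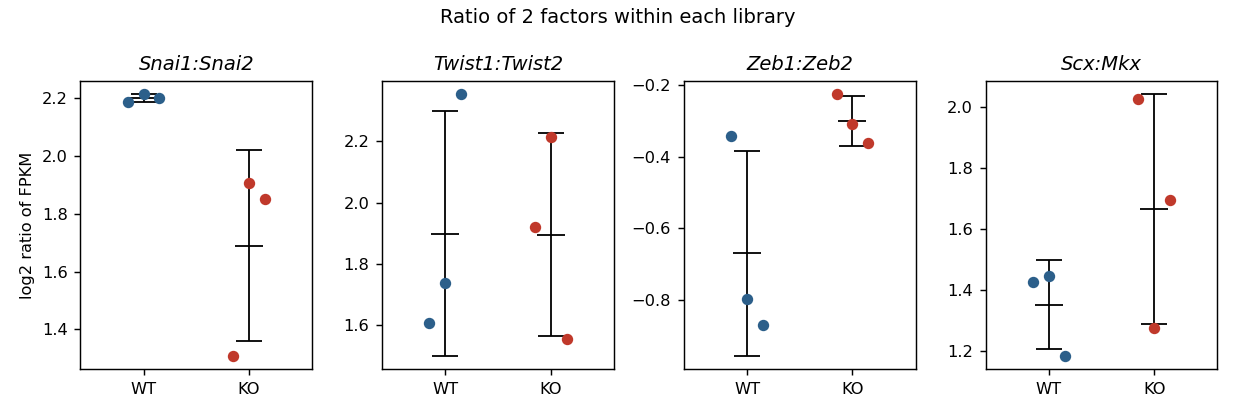
Log2 ratio of FPKM (vertical axes, each with its own range) for 4 pairs of factors in the 3 WT libraries (blue) and the 3 KO libraries (red), with bars at the mean and SD. The *Snai1* to *Snai2* ratio is nearly constant in WT (SD 0.0143) and lower in every KO library, and the ratios of the other pairs overlap between the groups.

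The scaling of the libraries sets what "lower" means here. With TMM normalization the median of all genes tested stayed near 0 (-0.02). Scaled so that 12 fibroblast marker genes had a median ratio of 1, it moved to 0.39, and with cardiomyocyte and macrophage marker genes to 0.35. Under the fibroblast scaling the log2 fold changes of the 4 called factors were -0.07 (*Snai1*), -0.27 (*Twist1*), -0.27 (*Twist2*) and -0.07 (*Sox9*), with adjusted p from 0.117 to 0.72 (edgeR). Under TMM the median of the fibroblast marker genes was -0.39, beside -0.47 for *Snai1* and *Sox9* and -0.67 for the Twist genes. Over all genes tested, TMM gave 2488 higher and 1760 lower, the fibroblast scaling 8359 and 47, and the cardiomyocyte and macrophage scaling 8121 and 70. Under both marker scalings *Snai2* and *Zeb1* were called higher (fibroblast scaling 0.47 with adjusted p = 0.0448, and 0.58 with adjusted p = 0.00738 from edgeR), and *Zeb2* and *Prrx1* turned to 0.22 and 0.30 without passing.

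**Figure D3:**
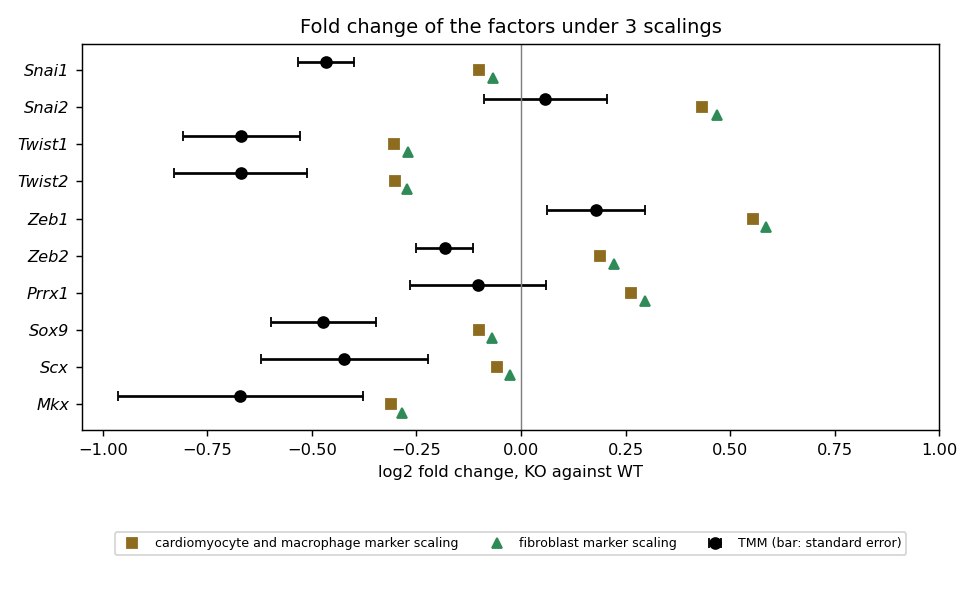
Log2 fold change of KO against WT (horizontal axis) for each of the 10 factors with TMM normalization (black, bars give the standard error) and after scaling on cardiomyocyte and macrophage markers (squares) or on fibroblast markers (triangles). Both marker scalings move every factor to the right, *Snai1* to -0.10 and -0.07, and turn *Zeb2* and *Prrx1* from negative to positive.

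Related genes were compared in 5 lists, and as for the factors the calls hold under TMM, since under the marker scalings 1 gene of these lists was called lower and 14 or 16 higher, in place of 24 and 4. Of other factors of the same families, 9 were too low to test. Of 17 relatives 8 passed the expression filter, and 3 were called lower and 0 higher, beside 12.5% and 17.7% over all genes tested, with 0 higher by DESeq2 and limma and 0 at an unadjusted p under 0.05. *Hand2*, a bHLH gene of heart and limb mesenchyme, fell from 14.6 ± 1.04 to 10.2 ± 0.641 FPKM (SD, n = 3, log2 fold change -0.55, adjusted p = 0.00221 from edgeR). *Tcf21*, a bHLH gene of the epicardial and fibroblast lineage that is also on the fibroblast marker list, fell from 45.8 ± 4.10 to 33.7 ± 2.63 FPKM (log2 fold change -0.48). The homeobox gene *Irx3*, named after its values were seen because its level is too low for the naming rule, had 18, 30 and 29 counts in KO and 53, 55 and 63 counts in WT (log2 fold change -1.08, adjusted p = 0.00643). *Snai3* had at most 2 counts in any library and *Tcf15*, a bHLH relative of *Scx*, at most 1.

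Among 15 partners and corepressors of these factors, all tested, 2 were called higher and 3 lower, a share near the 30.2% called over all genes tested, and the median log2 fold change was -0.09. The count of 3 lower was 1 by DESeq2, by limma, with the replicate block and without KO-3, WT-1, WT-2 or WT-3. *Id1*, which encodes an inhibitor that withholds E proteins from bHLH factors such as Twist and scleraxis, rose from 16.5 ± 0.515 to 29.9 ± 1.06 FPKM (SD, n = 3, log2 fold change 0.82, adjusted p = 4.88e-05 from edgeR). Its KO libraries had 64.0, 60.6 and 60.9 CPM and its WT libraries 36.3, 34.6 and 34.4 CPM, far apart. *Id2*, another member of that inhibitor family, fell (26.0, 31.7 and 29.1 CPM in KO against 43.4, 40.8 and 37.4 CPM in WT, log2 fold change -0.49). *Tcf4*, which encodes an E protein, rose (log2 fold change 0.42) and *Id1*, *Id2* and *Tcf4* were called in all 6 fits that left out a library. The other lower calls were not stable. *Ctbp1*, a corepressor that ZEB proteins recruit, had a log2 fold change of -0.20 (adjusted p = 0.0409 from edgeR), lost the call by DESeq2 (0.064), by limma (0.104), with the replicate block (0.0711) and in 5 of 6 fits that left out a library, and passed as higher under the marker scalings (0.17 and 0.20, adjusted p = 0.0446 and 0.0301). *Sox5*, which acts beside *Sox9* in cartilage and was named after its values were seen, had a log2 fold change of -0.48 (adjusted p = 0.0346 from edgeR) and lost the call by DESeq2 (0.0855), by limma (0.123), with the replicate block (0.054) and in 5 of 6 such fits.

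Of 17 epithelial genes, which Snail and ZEB factors repress in many tissues, 10 could be tested, and 2 were called higher and 4 lower, beside 17.7% higher and 12.5% lower over all genes tested. The 4 lower became 3 by DESeq2 and by limma, 1 without KO-3 and 2 without WT-1, WT-2 or WT-3. *Cdh1*, the E-cadherin gene and classical Snail target, was lower, with 46, 50 and 41 counts in KO and 71, 83 and 74 in WT (log2 fold change -0.65, adjusted p = 0.0298 from edgeR), a call lost by DESeq2 (0.0672) and in 4 of 6 fits that left out a library. *Krt18* and *Krt8*, keratins of simple epithelia, fell with log2 fold changes of -0.54 and -0.38, and *Krt8* lost its call without KO-3 (adjusted p = 0.0507 from edgeR) and was at 0.02 under the fibroblast scaling. The splicing regulator *Esrp2* had a log2 fold change of -0.67 (adjusted p = 0.042 from edgeR) and lost its call by limma (0.0504) and in 5 of 6 such fits. *Krt19* rose from 3.68 ± 0.496 to 10.8 ± 1.91 FPKM (SD, n = 3, log2 fold change 1.53). *Grhl2*, an activator of epithelial genes, had 74, 60 and 93 counts in KO and 4, 0 and 0 counts in WT, and no fold is given for it. It passed the expression filter only through the KO libraries, so its higher call carries no weight in the count for this list. *Cdh1*, *Krt8* and *Grhl2* were named after their values were seen. *Krt19* is also on a list of 7 epicardial and mesothelial markers, of which the other 6 were called lower, and that list summed to 162 to 183 FPKM in KO and 211 to 215 FPKM in WT.

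All 10 mesenchymal genes were tested, with 7 called lower, where 12.5% of all genes tested were, and a median log2 fold change of -0.36 beside -0.02 for all genes tested. Under each marker scaling 0 of the 10 were called lower and 3 higher, and 3 of these 7 turned positive without passing. With TMM edgeR called 0 higher, as did DESeq2 and limma, and 1 gene, *Itga5*, named after its values were seen, was called higher by edgeR with library size in place of TMM. At an unadjusted p under 0.05, 1 was higher in edgeR with TMM and 1 in limma. *Thy1* (-0.47) and *Mmp2* (-0.44) fell most on the log2 scale, and *Vim*, the vimentin gene, did not pass (-0.12, adjusted p = 0.134 from edgeR). Among 24 tendon and cartilage genes, 14 were tested, with 7 called lower and a median of -0.38, beside the same 12.5% and -0.02, and 0 were higher by edgeR, DESeq2 or limma, at an unadjusted p under 0.05 as well. These 7 were *Egr1* (-0.46), *Col1a1* (-0.44), *Fmod* (-0.43), *Col5a1* (-0.42), *Col1a2* (-0.38), *Col5a2* (-0.37) and *Col11a1* (-0.37), each value a log2 fold change with TMM, while under the fibroblast scaling *Col1a2* (0.02), *Col5a2* (0.03) and *Col11a1* (0.03) turned positive without passing (*Col11a1* under both marker scalings), and all but *Egr1* and *Col1a1* were named after their values were seen. *Fmod* lost its call without KO-3, WT-1 or WT-3 (adjusted p = 0.0952, 0.0885 and 0.0801 from edgeR), and the other 6 kept theirs in every fit that left out a library. *Tnmd*, a tendon marker that *Scx* activates, had 0 to 5 counts per library, and *Kera* and *Chad* had 0 in all. A decrease or a small difference in these genes was therefore not detectable at this depth. *Col1a1*, *Col1a2* and *Tcf21* also serve as fibroblast markers, so these counts overlap with that list. They help to set the fibroblast scaling, so their small values under it follow in part from how it was made.

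**Figure D4:**
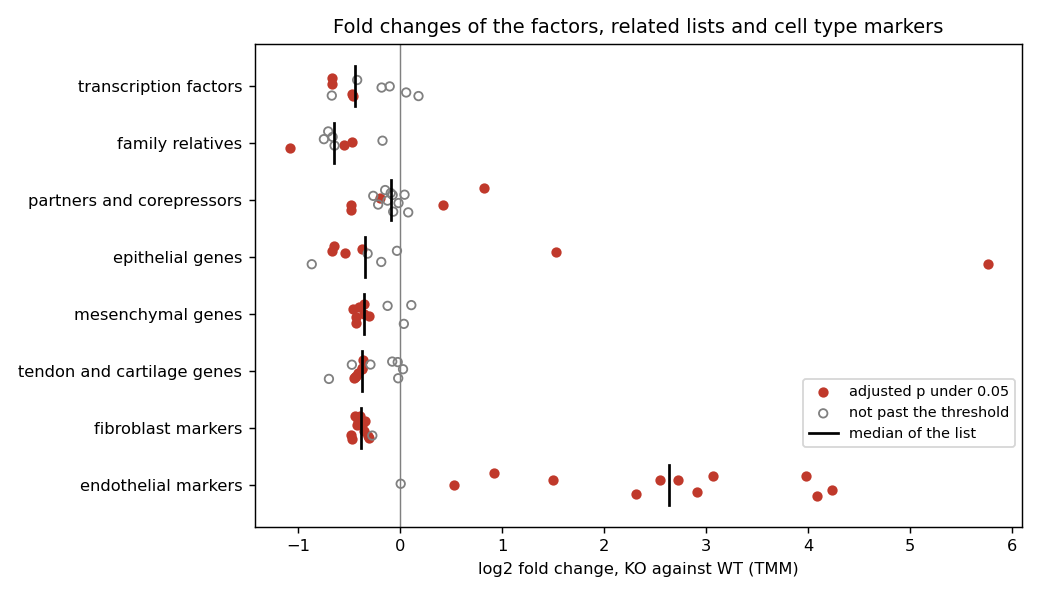
Log2 fold change of KO against WT with TMM normalization (horizontal axis) for each tested gene of the 10 factors, of 5 related lists and of the fibroblast and endothelial markers. Filled points passed the test and open points did not, the epithelial point farthest to the right is *Grhl2*, whose fitted value rests on WT counts of 0 to 4, and black lines give each median, which is -0.44 for the factors, -0.39 for fibroblast markers and 2.64 for endothelial markers.

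Marker genes of further cell types also differed between the groups under TMM, where 12.5% of all genes tested were called lower and 17.7% higher. Of 12 cardiomyocyte markers 8 were called lower and 0 higher (222.9 to 242 FPKM summed in KO, 282 to 304 FPKM in WT), and of 8 tested mural cell markers 5 were called lower and 1 higher (92.5 to 103 FPKM in KO, 127 to 129 FPKM in WT, with *Higd1b* at 0 in every library). Lymphocyte markers were at most 0.435 FPKM in sum, and 5 of 8 were at 0 in every library. The part of these cells, and of endothelial cells, in the values of the 10 factors and of the related lists, such as *Id1* and *Tcf4*, was not tested.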

How the data were processed

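RNA was sequenced as Illumina paired-end reads from stranded libraries of 6 samples, grouped by their labels. Reads had been aligned by the authors to the mouse genome mm10 (HISAT2), with GRCm38.p4 and edgeR also named in the submitters' processing notes. The authors deposited whole-number counts per gene without normalization and FPKM values, which are the counts divided by gene length and library total. The counting tool, annotation release and strand setting are not given in the sources used here.

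The test of KO against WT used the counts, filterByExpr, TMM and glmQLFTest with Benjamini-Hochberg adjustment (edgeR 4.0.16, R 4.3.3), all 6 libraries and no covariate. SE is the log2 fold change divided by the square root of F. The filter left 14084 of 20854 genes with any count. Replicates of a group differed by more than sampling noise (in pairs of replicates, 22.4% to 31.8% of genes passed p under 0.05). FPKM ratios were compared with exact two-sided permutation tests. Alternatives were DESeq2 1.42.0, limma 3.58.1 on log2(FPKM + 1), other scalings and filters, a replicate block, a fold change above 1.5, and each library left out. Named genes are the 10 factors, genes overlapping them, *Kdm5b*, and per related list the 2 largest rises and 2 largest falls called at a mean FPKM of at least 1. Others (*Vim*, *Snai3*, *Tcf15*, *Tnmd*, *Kera*, *Chad* and those marked in the text) were named after their values were seen. The factors, lists and scalings were chosen with earlier results of these data known. The fits were tested on simulated data. The detection floor is 3 counts and covers counting error only. Promoter windows came from RefSeq and matched 5 of the 10 factors, exons came from GENCODE M21, and sequences on chromosome 18 were not used here. Figures were drawn with matplotlib 3.10.9.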

Additional observations from a re-analysis of the deposited data

How the results depend on the processing

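The count of 4 factors lower and 0 higher was the same with DESeq2, limma, no filter, library size in place of TMM, a minimum mean CPM of 1 and the replicate block, and upper quartile normalization gave 5 lower. Scaling on cardiomyocyte and macrophage markers or on fibroblast markers gave 0 lower and 2 higher each time, and a fold change above 1.5 left 2 lower. Leaving out single libraries gave 2 to 4 lower, with the lowest count without WT-1, and 0 to 1 higher. Over the related lists 24 genes were lower and 4 higher. The marker scalings changed this to 1 lower and to 14 and 16 higher, a fold change above 1.5 left 3 lower, and single libraries left out gave 18 to 25 lower and 4 higher. Under the cardiomyocyte and macrophage scaling the sign turned in 2 of 10 factors and 22 of 57 list genes, 5 of them called with TMM, and under the fibroblast scaling in 2 and 25, 8 of them called. Among named genes, under the cardiomyocyte and macrophage and the fibroblast scaling the log2 fold changes were 0.19 and 0.22 for *Zeb2*, 0.26 and 0.30 for *Prrx1*, 0.15 and 0.18 for *Kdm5b*, and 0.17 and 0.20 for *Ctbp1*, *Krt8*, *Col1a2*, *Col5a2* and *Col11a1* turned to between 0.02 and 0.03 under the fibroblast scaling, and *Vim* and *Col11a1* turned positive under both. These turns follow from a scaling that moves all genes up, and *Col1a2* is itself among the markers that set the fibroblast scaling. Leaving out single libraries gave -0.12 to 0.18 for *Snai2*, -0.24 to 0.12 for *Prrx1* and -0.012 to 0.065 for *Bop1*, whose upper quartile value was -0.013.

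Libraries with the same replicate number showed little shared deviation (correlations across genes of 0.00, 0.00 and 0.03), and those with different numbers gave -0.03 to 0.02. With 3 libraries per group this cannot decide whether libraries were paired, and the labels do not say. With the replicate block 4 factors were lower and 0 higher, and 22 list genes were lower, with *Ctbp1* and *Sox5* lost, so that partners and corepressors had 1 lower in place of 3. The difference of the *Snai1* to *Snai2* ratio ran from -0.62 to -0.32 over single libraries left out, and those of *Zeb1* to *Zeb2* and *Scx* to *Mkx* from 0.27 to 0.53 and from 0.13 to 0.51. *Scx* and *Mkx* had 38 to 121 counts per library.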
